A study of Mus musculus with 6 samples.

Results

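The chemokine receptors described here are 9 genes, Ccr2, Ccr6, Ccr7, Ccr9, Ccr10, Cxcr3, Cxcr4, Cx3cr1 and Xcr1, chosen by name as receptors that position dendritic cells (DCs) and other leukocytes. All 9 were found by symbol among the 16593 named genes of an Illumina mouse bead array, Ccr6 with a pair of probes and each other receptor with a single probe. A receptor was called measured where its detection p-value, which asks whether a probe is brighter than the array's negative controls, was under 0.05 on at least 3 of the 6 arrays. By that rule 5 of the 9 were measured (Ccr7, Cxcr3, Cxcr4, Cx3cr1 and Xcr1) and 4 were not (Ccr2, Ccr6, Ccr9 and Ccr10).

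The samples were DCs of mouse peripheral lymph nodes, purified by flow cytometric sorting, in 2 groups of 3 arrays. In the antibiotics group the mice had been gavaged with broad-spectrum antibiotics for 10 days. The untreated group carries the label no treatment and names no gavage, so gavage and antibiotics cannot be told apart if those mice had none. The sorting gate, the strain, age and sex of the mice, the drugs and the number of mice behind each array are not given in the sources used here, and p-values therefore measure the spread between these arrays, which may be technical.

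Chemokine receptors are seven-transmembrane proteins that couple to inhibitory G proteins and steer a cell up a gradient of chemokine. In DCs the receptors change with the stage of the cell's life. Tissue and blood DC precursors use receptors such as Ccr2, Ccr6 and Cx3cr1, and a DC that matures switches on Ccr7, whose ligands Ccl19 and Ccl21 draw it into the lymph node. Xcr1 marks cDC1, the conventional DCs that excel at cross-presenting antigen to CD8 T cells.

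Each array detected 6876 to 7674 of its 25697 probes, and 6331 genes and unnamed probes entered the tests. Arrays correlated at 0.963 to 0.984 across these. Antibiotics replicate 1 stood apart on the first principal component, at -25.3 where the other 5 arrays lay between 1.36 and 11.5, so values without it are given where they matter. Of the DC identity genes, Itgax (CD11c), Zbtb46 and the MHC class II gene H2-Ab1 were detected on all 6 arrays, while the probes of Flt3 and of the cDC1 lectin gene Clec9a were detected on 0. Precision is limited by having 3 arrays in each group.

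**Figure D1:**
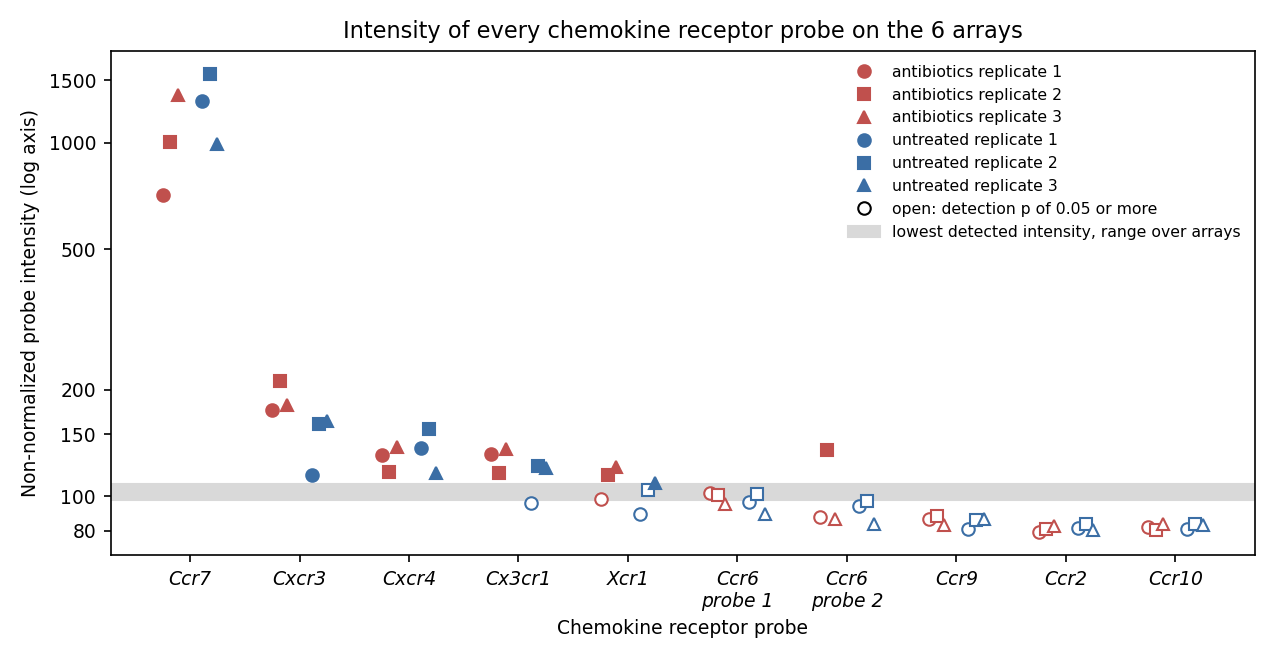
Non-normalized probe intensity (vertical log axis) of the 10 probes of the 9 chemokine receptors on each of the 6 arrays, with antibiotics arrays in red, untreated arrays in blue, and open symbols where the detection p was 0.05 or more. Ccr7 lies between 712.4 and 1566.5 on all arrays, while the probes of Ccr2, Ccr9 and Ccr10 lie under the grey band that marks the lowest detected intensity of each array.

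The antibiotics comparison asked whether oral broad-spectrum antibiotics altered gene expression in the lymph node DC, here in the receptors that guide its movement. After antibiotics Cxcr3 lay above every untreated array, by 1.69-fold on average, and Cx3cr1 and Xcr1 had higher means with overlapping arrays. Ccr7 and Cxcr4 had lower means, again with overlapping arrays. None of the 5 receptors passed limma's test adjusted over all genes, where 0 of 6331 passed (0%), and the smallest adjusted p among the receptors was 0.551.

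Read against the background, 1 of the 5 measured receptors had an unadjusted p under 0.05, where 7.74% of all genes did (490 of 6331, with 3.41% higher and 4.33% lower). In 1 of the 5 the arrays of the groups did not overlap, where 13.7% of all genes behaved so (7.12% higher and 6.62% lower). That 1 was Cxcr3 in both counts. Of the 5, 3 had a fold change above 0, as did 53.5% of all genes. The median log2 fold change of the 5 was 0.32, and over all genes it was 0.017. The 5 passed a filter on dim signal, Xcr1 through only 3 arrays, and do not stand for all 9.

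**Figure D2:**
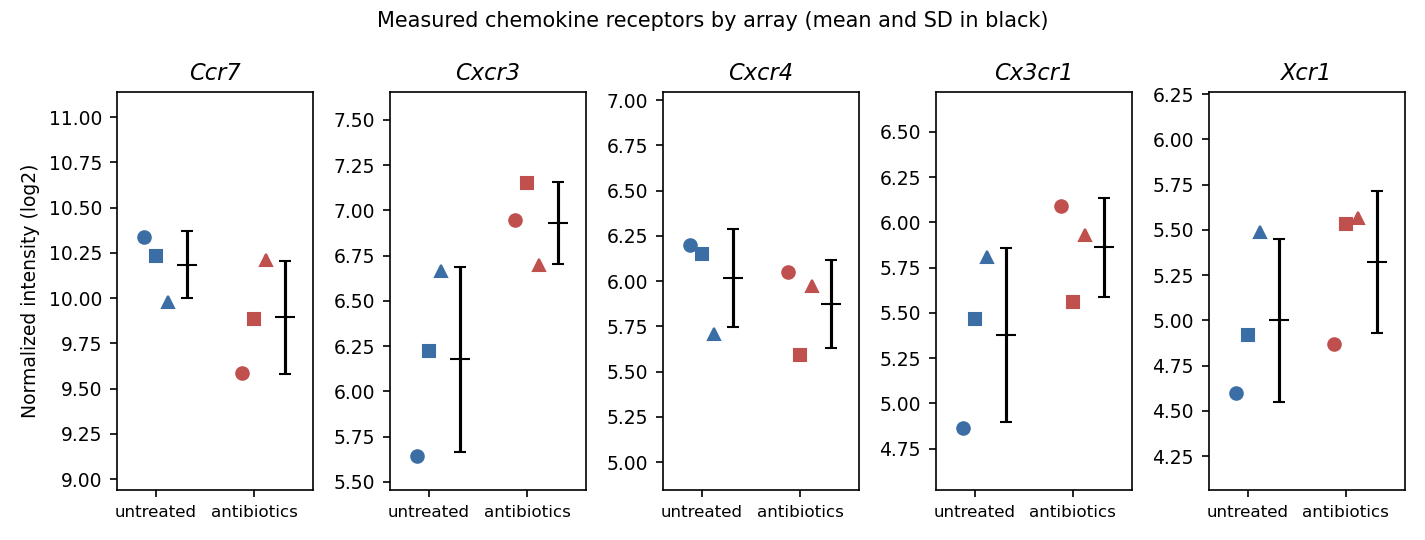
Normalized log2 intensity (vertical axis, each panel spanning the same number of log2 units) of the 5 measured receptors, with each array as a symbol (circle, square and triangle for replicates 1, 2 and 3) and the mean with SD of 3 arrays in black. The antibiotics arrays of Cxcr3 lie above the untreated arrays, the closest pair being 6.70 and 6.66, and in the other 4 panels the groups overlap.

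Ccr7 is the receptor that brings DCs from tissue into the lymph node and guides them to T cell areas. Its non-normalized intensity was 712.4, 1002.2 and 1360.5 on antibiotics arrays 1 to 3 and 1309, 1566.5 and 991.2 on untreated arrays 1 to 3, detected on all 6. After background correction and quantile normalization these became 9.59, 9.89 and 10.21 after antibiotics and 10.34, 10.23 and 9.98 without, in log2 units. Antibiotics replicate 1 was the lowest of the 6 arrays and untreated replicate 1 the highest, and antibiotics replicate 3 lay within the untreated range.

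On the normalized log2 scale Ccr7 averaged 9.89 ± 0.31 in the antibiotics group and 10.18 ± 0.19 in the untreated group (SD, n = 3 each). The log2 fold change of -0.29 (SE 0.19, 95% interval -0.73 to 0.15) did not pass limma's test (adjusted p = 0.765). Without antibiotics replicate 1 it was -0.14, and without antibiotics replicate 3 it was -0.45, so the size turned on single arrays while the sign did not. The ligand genes Ccl19 and Ccl21a, made mostly by lymph node stroma, were detected on 1 and 2 of the 6 arrays and gave no measured level.

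The markers of migratory DCs, the mature cells that carry Ccr7, are given beside it. Of the 17 measured, 12 were lower and 5 higher after antibiotics, where 53.5% of all genes lay higher. An unadjusted p under 0.05 in limma was reached by 2 in the lower direction and 1 in the higher. Over all genes 4.33% and 3.41% did so, and 0 of the 17 passed after adjustment. The 2 lower ones were Cd40 and Stat4. Stat4 (-0.81) was detected on 1 of 3 antibiotics arrays and 3 of 3 untreated arrays, so the filter kept it mainly through the untreated group. The mean log2 level of the list ran from 9.80 to 9.95 on the antibiotics arrays and from 9.86 to 10.08 on the untreated arrays, with antibiotics replicate 3 and untreated replicate 3 inside the other group's range, as for Ccr7. The costimulatory receptor gene Cd40 lay at -0.61 (SE 0.15, and -0.33 with each of its other probes) and Ccl17, a chemokine that mature DCs secrete, at 0.55 (SE 0.24), with adjusted p of 0.367 and 0.634 in limma. The part of such cells in the Ccr7 value was not tested. In RNA from a sorted bulk, fewer cells of a type and less RNA per cell cannot be told apart, and this holds for every receptor below.

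Cxcr3, the receptor for the interferon-induced chemokines Cxcl9, Cxcl10 and Cxcl11, is best known on activated T cells and is also carried by plasmacytoid DCs and some conventional DCs. Its intensity was 175.2, 212.6 and 181.6 on antibiotics arrays 1 to 3 and 115.3, 160 and 163.2 on untreated arrays 1 to 3. All 6 arrays detected it. The normalized values were 6.95, 7.15 and 6.70 after antibiotics against 5.64, 6.23 and 6.66 without. The groups did not overlap, but the lowest antibiotics array (replicate 3) and the highest untreated array (replicate 3) were close together, and untreated replicate 1 lay far below the rest.

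Cxcr3 averaged 6.93 ± 0.23 in the antibiotics group and 6.18 ± 0.51 in the untreated group (log2, SD, n = 3 each). The log2 fold change was 0.75 (SE 0.26, 95% interval 0.17 to 1.34), with an unadjusted p of 0.017 that did not pass in limma after adjustment over 6331 rows (adjusted p = 0.551). It ranked 195 by p among all rows. Without untreated replicate 1 the fold change was 0.49. In the fit without background correction it was 0.42, where the background left in the intensities compresses differences of dim probes. With untreated replicate 3 left out it was 0.997. The groups also did not overlap under the 5 other background corrections, scalings and normalizations.

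Of the 3 ligands of Cxcr3, only Cxcl9 was detected on any array, and the probes of Cxcl10 and Cxcl11 were detected on 0. Normalized Cxcl9 was 9.80, 9.44 and 9.66 on antibiotics arrays 1 to 3 and 8.36, 9.02 and 8.91 on untreated arrays 1 to 3. The groups did not overlap, and untreated replicate 1 was the lowest array for the ligand as for the receptor. Its log2 fold change of 0.87 (SE 0.20) did not pass over all genes (limma adjusted p = 0.366).

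Because T, NK and plasmacytoid cells also carry Cxcr3, their markers are given beside it. For T cells 3 of 9 markers on the array were measured, with a mean log2 level of 6.27 to 6.39 after antibiotics and 6.19 to 6.54 without, and the defining genes Cd3e, Cd3d and Cd3g were detected on 0 arrays. For NK cells 3 of 9 were measured, at 6.80 to 7.19 after antibiotics and 6.71 to 7.12 without, and Ncr1, Klrb1c, Nkg7, Gzma and Gzmb were detected on 0 arrays. In both lists the groups overlapped. Plasmacytoid DC markers were 6 of 7 lower, where 53.5% of all genes lay higher. Their mean level was 6.30 to 6.44 after antibiotics and 6.56 to 6.66 without, with no overlap. Of the 7, only Atp1b1 (-0.57) had a limma unadjusted p under 0.05 or groups that did not overlap. Over all genes 4.33% and 6.62% lay lower in these ways. Siglech, Ly6d and Klk1 of this list were detected on 2 of 6 arrays each and were not measured. The part of these cell types in the Cxcr3 value was not tested.

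**Figure D3:**
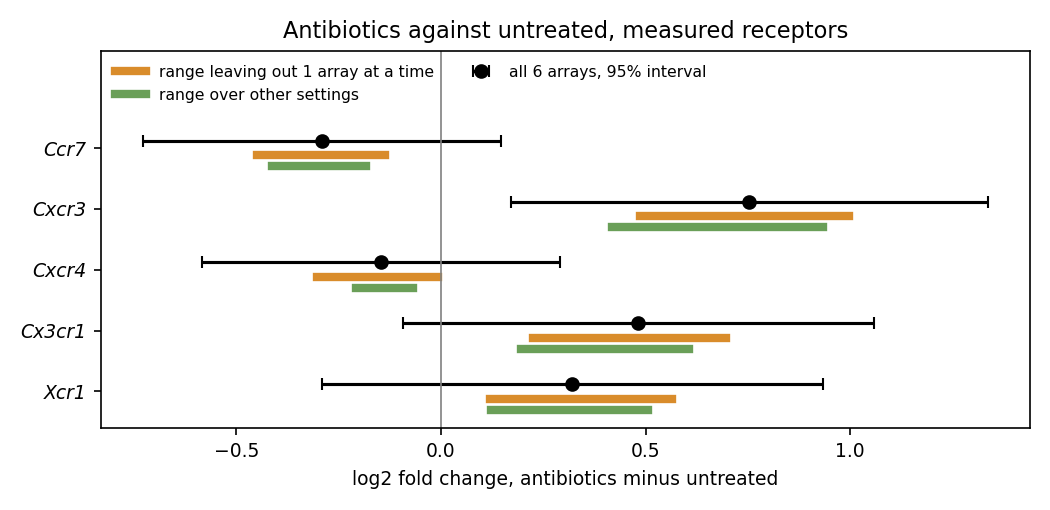
Log2 fold change of the 5 measured receptors, antibiotics minus untreated (horizontal axis), with limma's 95% interval in black, the range of the value when 1 array at a time was left out in orange, and the range over the other settings in green. The interval excludes 0 for Cxcr3 alone, whose adjusted p was 0.551, and no orange or green bar crosses 0, the closest being Cxcr4 at -0.0078.

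Cxcr4 binds Cxcl12 and holds cells in bone marrow and other Cxcl12-rich niches, and in skin DCs it takes part in the exit towards lymph nodes. Its intensity was 130.6, 117.4 and 137.8 on antibiotics arrays 1 to 3 and 137.3, 154.9 and 116.8 on untreated arrays 1 to 3, detected on all 6. The normalized log2 values were 6.05, 5.59 and 5.97 against 6.20, 6.15 and 5.71. The groups overlapped, with untreated replicate 3 lower than 2 of the antibiotics arrays.

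The Cxcr4 means were 5.87 ± 0.24 after antibiotics and 6.02 ± 0.27 without (SD, n = 3 each). The log2 fold change of -0.15 (SE 0.19, 95% interval -0.58 to 0.29) did not pass (limma adjusted p = 0.875). Leaving out antibiotics replicate 2 gave -0.0078, and leaving out untreated replicate 3 gave -0.30. The interval does not exclude changes from 1.5-fold lower to 1.22-fold higher. Cxcl12 itself was dim but detected on all antibiotics and untreated arrays, at a log2 fold change of 0.24 (SE 0.14, limma adjusted p = 0.730).

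Cx3cr1, the fractalkine receptor, is known from monocytes, macrophages and a subset of DCs. Its intensity was 131.9, 116.1 and 136.1 on antibiotics arrays 1 to 3 and 95.5, 121.8 and 120.2 on untreated arrays 1 to 3. Untreated replicate 1 was not detected at a detection p-value of 0.0714 and was the lowest array. The normalized log2 values were 6.09, 5.56 and 5.93 after antibiotics and 4.86, 5.47 and 5.81 without, and the groups overlapped through antibiotics replicate 2.

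The means of Cx3cr1 were 5.86 ± 0.27 and 5.38 ± 0.48 (SD, n = 3 each), antibiotics first. The log2 fold change of 0.48 (SE 0.25, 95% interval -0.093 to 1.06) did not pass in limma (adjusted p = 0.711), and it was 0.22 without untreated replicate 1 and 0.70 without untreated replicate 3. Without background correction it was 0.20. The ligand gene Cx3cl1 lay at 0.55 (SE 0.26, limma adjusted p = 0.653), with untreated replicate 1 again the lowest array.

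Macrophage and monocyte markers stand beside Cx3cr1, since those cells carry the receptor. Of 10 on the array, 5 were measured, 4 higher and 1 lower after antibiotics (2 higher and 3 lower without antibiotics replicate 1, or with arrays centred on the median of all probes), with a mean level of 7.04 to 7.41 after antibiotics and 6.92 to 7.19 without. The lysozyme gene Lyz2 lay at 0.54 (0.14 with its other probe) and Adgre1 (F4/80) at 0.33 (0.22 with its other probe). The brighter probe of each had no overlap between groups, with adjusted p of 0.538 and 0.634 in limma. Over all genes 7.12% lay higher without overlap. The remaining measured markers hardly differed, with C1qa at 0.029, C1qb at 0.018 and Cd14 at -0.080. The macrophage genes Mertk, Fcgr1 and Siglec1 were detected on 0 arrays. The part of such cells in the Cx3cr1 value was not tested.

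Xcr1 senses Xcl1, a chemokine made by activated CD8 T cells and NK cells, and is the most specific surface marker of cDC1. Its intensity was 98.4, 115.3 and 120.7 on antibiotics arrays 1 to 3 and 88.9, 104.5 and 109.3 on untreated arrays 1 to 3. It was detected on antibiotics replicates 2 and 3 and on untreated replicate 3 only. The normalized log2 values were 4.87, 5.54 and 5.57 against 4.60, 4.92 and 5.49, so that antibiotics replicate 1 lay within the untreated range.

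The Xcr1 means were 5.32 ± 0.39 after antibiotics and 5.002 ± 0.45 without (SD, n = 3 each). The log2 fold change of 0.32 (SE 0.27, 95% interval -0.29 to 0.93) did not pass (limma adjusted p = 0.808). Leaving out untreated replicate 1 gave 0.12, antibiotics replicate 1 gave 0.55 and untreated replicate 3 gave 0.56. The ligand gene Xcl1 was detected on 0 arrays.

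The other markers of cDC1 are given beside Xcr1. All 9 measured were higher after antibiotics, Ppt1 by only 0.011, with 4 at a limma unadjusted p under 0.05 and 0 past the adjusted threshold. The count was 7 of 9 when antibiotics replicate 2 or untreated replicate 1 was left out. It was 8 of 9 without antibiotics replicate 1, or with arrays centred on the median of all probes. Over all genes 53.5% lay higher, and 3.41% lay higher with an unadjusted p under 0.05. Their mean log2 level was 7.65 to 7.74 on the antibiotics arrays and 7.04 to 7.53 on the untreated arrays, with no overlap. The adhesion molecule gene Cadm1 lay at 0.78 (SE 0.19), Plpp1 at 0.69 and Tlr11, which senses microbial profilin, at 0.52, with limma adjusted p between 0.367 and 0.565. Clec9a and Cd8a were detected on 0 arrays. Untreated replicate 1 was the lowest array for this list, as it was for Xcr1, Cx3cr1 and Cxcr3. Markers of cDC2, the subset that mainly primes CD4 T cells, lay at 7.92 to 7.95 after antibiotics and 7.94 to 8.14 without, 2 of 8 higher and 6 lower (4 and 4 without untreated replicate 3). Among the lower was Ltb (-0.24), detected on 0 antibiotics arrays and 3 untreated arrays. The filter on dim probes therefore kept Ltb through the untreated group alone. The part of the subset mix in these receptor values was not tested.

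**Figure D4:**
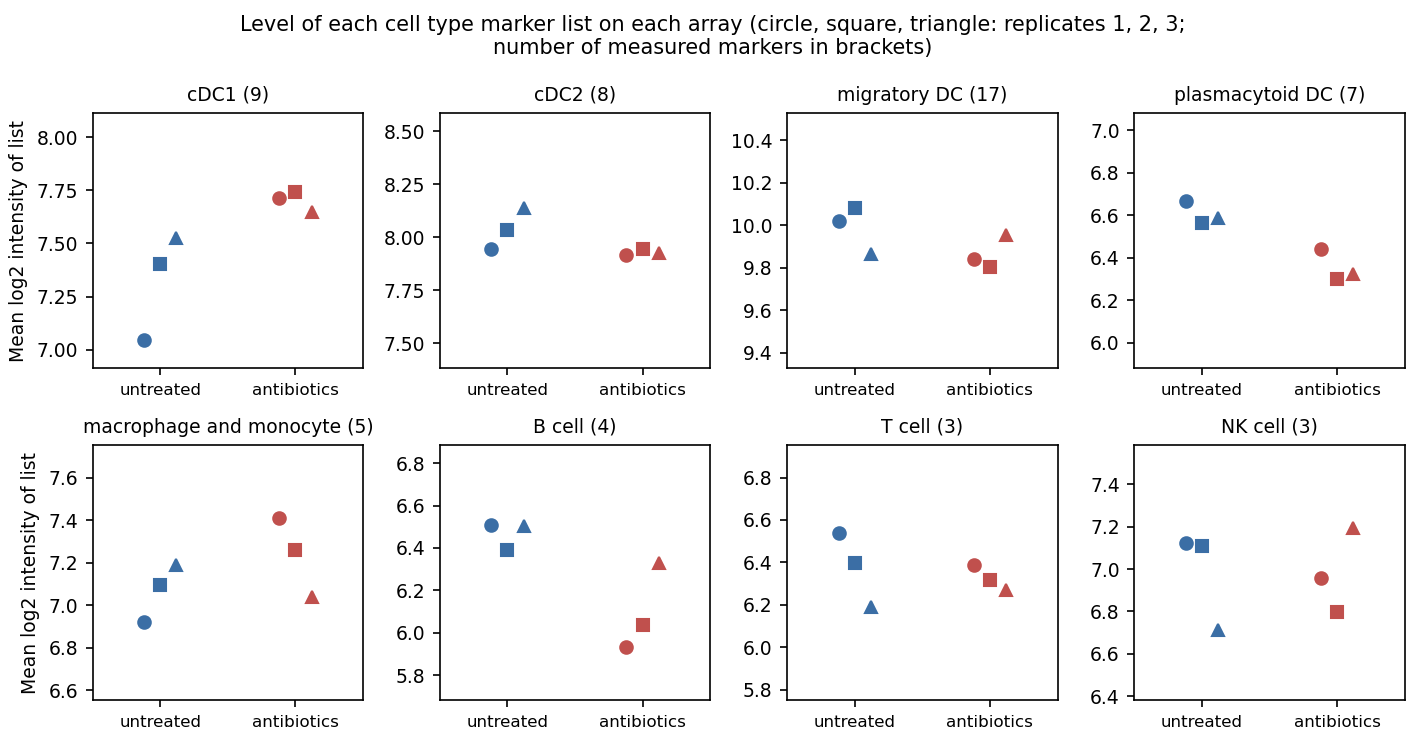
Mean normalized log2 intensity (vertical axis) of the measured markers of 8 cell types on each array, untreated in blue and antibiotics in red, with circle, square and triangle for replicates 1, 2 and 3. The cDC1 list lies at 7.65 to 7.74 after antibiotics and 7.04 to 7.53 without, the plasmacytoid DC list lies lower after antibiotics with no overlap, and the T and NK cell lists overlap.

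Ccr6, the receptor for Ccl20, guides immature DCs and B cells to mucosal epithelium. Its 2 probes disagreed. One gave 89.3 to 102.1 and was detected on 0 arrays, with detection p from 0.0551 to 0.134. The other was detected only on antibiotics replicate 2, at an intensity of 135.4, and lay between 83.3 and 97 on the remaining 5 arrays. On that array the first probe read 101.2, no higher than on antibiotics replicate 1 (102.1), so the pair gives no level for Ccr6.

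B cells carry Ccr6, and the mean level of the 4 measured B cell markers on antibiotics replicate 2 was 6.04, between 5.93 and 6.33 on the other antibiotics arrays. The untreated arrays lay higher, at 6.39 to 6.51, with 3 of the 4 markers lower after antibiotics (2 of 4 without untreated replicate 3). Over all genes 53.5% lay higher. Fcmr lay at -1.06 and Cd22 at -0.79, each detected on 2 of 3 antibiotics arrays and 3 of 3 untreated arrays. Cd79b lay at -0.057. Fcrla went the other way, at 0.43 with no overlap (0.32 and 0.29 with its other probes). The defining genes Cd79a and Ms4a1 were detected on 0 arrays, while Cd79b was detected on all 6.

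Ccr2, which brings monocytes and DC precursors out of the bone marrow, gave an intensity of 79.1 to 83.8, under the lowest detected signal of each array (97.4 to 108.4). Ccr9, the receptor for gut Ccl25 carried by gut-homing T cells and plasmacytoid DCs, gave 81 to 88.2. Ccr10, the receptor for skin and mucosal Ccl27 and Ccl28, gave 80.6 to 83.8. None of these 3 was detected on any array, with detection p of 0.193 or more, so these probes gave no level in either group. The probes of broadly expressed genes such as Rhoa and Gnai3 were also detected on 0 arrays, so an undetected probe cannot tell a low level from a probe that does not respond. The receptor ligands Ccl2, Ccl7, Ccl12, Ccl25, Ccl27a and Ccl28, and Ccl20 of Ccr6, were also detected on 0 arrays.

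In the RefSeq table of mouse assembly GRCm38.p6 several of these receptor genes are neighbours. Along that stretch the protein-coding genes run Ccr9, Fyco1, Cxcr6, Xcr1, Ccr1, Ccr1l1, Ccr3, Ccr2. Of the chemokine receptors in this run only Xcr1 was detected on any array. Cx3cr1 lies elsewhere, next to Ccr8, which was detected on 0 arrays. Over the whole family, 0 of the 9 other classical chemokine receptors on the array were measured. Of those 9, Cxcr5 was detected on a single array and 8 on 0.

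Among atypical chemokine receptors, which bind chemokines without G protein signalling, 2 of 5 were measured. Ccrl2, which presents the chemoattractant chemerin and is induced on activated DCs, read 9.49, 9.20 and 9.17 after antibiotics and 8.93, 9.04 and 8.41 without, in normalized log2 units. Its groups did not overlap and its log2 fold change was 0.49 (SE 0.20, limma adjusted p = 0.610). Ackr1, the Duffy receptor of red cells and venules, lay at 0.0020 (SE 0.19). Ackr2, Ackr3 and Ackr4 were detected on 0 arrays.

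Of the 15 ligand genes of the 9 receptors, 3 were measured, all higher after antibiotics, with a median log2 fold change of 0.55. For 2 of them, Cxcl9 and Cxcl12, the groups did not overlap, where 7.12% of all genes lay higher without overlap. Other chemoattractant receptors gave 6 measured of 14, with 2 higher and 4 lower at a median of -0.18 (3 and 3 without untreated replicate 3, or with arrays centred on the median of probes detected on all of them). S1pr2, a sphingosine 1-phosphate receptor that restrains migration, lay at -0.67 (SE 0.18, limma adjusted p = 0.402), with no overlap and detection on 2 of 3 antibiotics arrays. Gpr183, the oxysterol receptor that places cDC2 in lymphoid tissue, lay at -0.29 (SE 0.17).

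Downstream of the receptors, the G proteins and their effectors were measured in 14 of 21 cases, 9 higher and 5 lower, at a median of 0.075. Without antibiotics replicate 1, or with arrays centred on the median of all probes, the split was 6 higher and 8 lower. Of the 14, 0 had an unadjusted p under 0.05 and 0 had groups that did not overlap, against 7.74% and 13.7% of all genes. The G protein subunit gene Gnai2, through which these receptors signal in leukocytes, lay at 0.15 (SE 0.18), and Was, the actin regulator lost in Wiskott-Aldrich syndrome, at 0.52 (SE 0.26).

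The genes that switch the receptors off differed among themselves, with 7 measured of 13. Arrb2, the beta-arrestin that uncouples and internalises receptors, read 5.71, 5.91 and 6.47 on antibiotics arrays 1 to 3 and 7.24, 6.99 and 6.54 on untreated arrays 1 to 3. The groups did not overlap, although replicate 3 of each group came close. Its log2 fold change was -0.89 (SE 0.24, limma adjusted p = 0.402). The related Arrb1 lay at 0.36 (SE 0.20). Rgs2, which speeds G protein inactivation, lay at 0.62 (SE 0.23, limma adjusted p = 0.569) with no overlap. Rgs10 lay at -0.12 (SE 0.13), also with no overlap, and Rgs1, abundant in lymphocytes and DCs, at -0.092 (0.095 with its other probe). Of the 7, 1 lay higher and 2 lower without overlap, where 7.12% and 6.62% of all genes did. The list's median was 0.076.

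**Figure D5:**
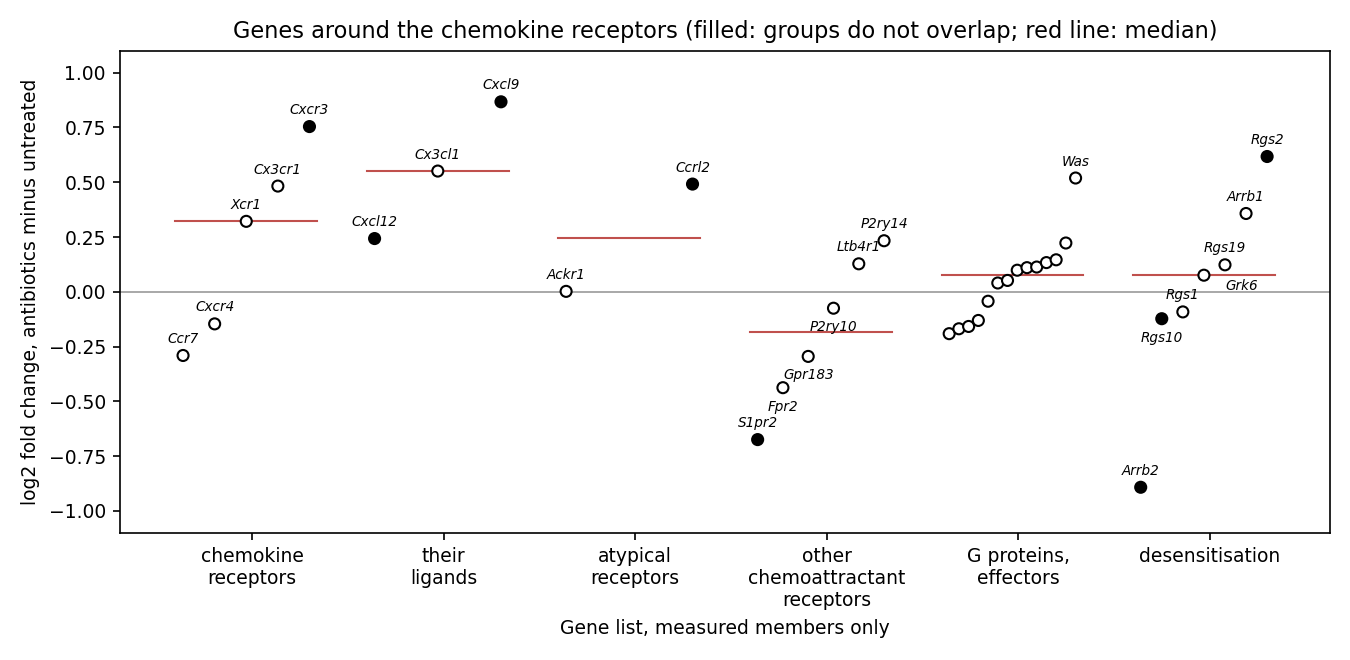
Log2 fold change, antibiotics minus untreated (vertical axis), of every measured gene in 6 lists around the chemokine receptors, filled where the arrays of the groups do not overlap, with the list's median as a red line. Cxcl9 at 0.87 and Cxcr3 at 0.75 are the highest points and Arrb2 at -0.89 the lowest, and no gene shown passed the adjusted threshold.

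For each measured receptor the 3 genes with the most similar pattern over the 6 arrays were taken from 3598 named genes with an SD of at least 0.2. With 6 arrays and so many genes, high correlations arise readily, and they are given as a description. Ccr7 was closest to Ctdsp1 (Pearson r = 0.999), Kmt2b and Clip1, all with negative fold changes of -0.29 to -0.52. Cxcr3 was closest to Nxt2 (r = 0.979), Rnase6 and Accs, which lay at 0.36 to 0.60. Cxcr4 was closest to Lrrc57 (r = 0.990), Uvrag and Ifitm2, Cx3cr1 to Dnase1l3 (r = 0.990), Ptpmt1 and Mrps17, and Xcr1 to Nmral1 (r = 0.984), Sgf29 and Zfp748.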

How the data were processed

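RNA from sorted lymph node DCs was labelled with biotin, per the labels' protocols. The authors deposited non-normalized probe intensity with, per the file headers, a detection p-value beside each value. They also deposited normalized intensity, equal to the series value table in all 154182 cells. The authors' normalization is not stated in the sources used here. Its scale is linear and uncentred.

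Non-normalized intensity was processed with neqc of limma 3.58.1 (R 4.3.3): background from the detection p-values, normexp, an offset of 16, quantile normalization and log2. The offset understates fold changes of dim genes, and quantile normalization hides a shift of all genes together. Probes detected (p under 0.05) on at least 3 arrays were kept, 7507 of 25697. The brightest kept probe stood for a gene, leaving 6331 rows. The platform annotation gave 1 symbol to 23978 probes and none to 1719. Groups were compared with limma's lmFit and eBayes, Benjamini-Hochberg over all rows, at an adjusted p of 0.05. With 3 arrays a group, the exact permutation test for 1 gene cannot go under 0.1. Only the limma fit was tried on simulated data, drawn as log2 values with independent noise. Background correction, the probe filter and normalization were not part of that trial.

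Receptors, gene lists and the rule for named genes were chosen with earlier results of these data known. The rule took the 9 receptors, the 3 genes most like each measured one, up to 4 genes per list by p, their ligands and identity genes. List levels are mean log2 values. Same-numbered arrays of the groups did not deviate together (r = -0.046, -0.060 and -0.15), so the numbers were not used as pairs. Outlier tests need 4 arrays a group and were not run.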

Additional observations from a re-analysis of the deposited data

Results flagged for a closer look

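A Ccr6 probe that entered no comparison, because only 1 array detected it, read 135.4 on antibiotics replicate 2, above the untreated arrays (83.3 to 97). The second Ccr6 probe read 101.2 on that array and was not detected there at a detection p-value of 0.0551. The difference was not tested.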

How the results depend on the processing

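All 5 receptors kept their sign in the 12 alternatives that moved their fold change and passed the adjusted threshold in no alternative that gave them a value. The other alternatives changed only the test, the probe filter or the choice of probe, or repeated the authors' values, and could not turn a sign. The log2 fold change ran from -0.45 to -0.14 for Ccr7, 0.42 to 0.997 for Cxcr3, -0.30 to -0.0078 for Cxcr4, 0.20 to 0.70 for Cx3cr1 and 0.12 to 0.56 for Xcr1. The unadjusted p of Cxcr3 ran from 0.0025 to 0.057 and its adjusted p from 0.268 to 0.871. Of all genes, 0 passed in limma under each of the 19 alternatives, with the smallest adjusted p between 0.094 and 0.677. The count at an unadjusted p under 0.05 was 1094 of 18312 without the filter on dim probes, which tests more genes, and 341 to 549 without single arrays. With each array centred on its median over all probes, chosen after the data were seen, 79 of 359 such genes were higher, against 216 of 490, and the median fold change of all genes was -0.054. A filter asking detection on all 6 arrays left 3 receptors measured, and detection on any array gave 6. With the replicate number as a block the count was 417 and Cxcr3 had an adjusted p of 0.713, and no call changed. With limma's array weights the count was 690 of 6331, 345 higher and 345 lower. In that fit Xcr1 lay at 0.51, with a limma unadjusted p of 0.047 and an adjusted p of 0.455. No measured receptor had another kept probe. In the authors' normalized intensity, 3 of 6 Xcr1 values lay at or under the floor of 16. Signal near background limits Xcr1 and Cx3cr1 most.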

Other observations

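Markers of Langerhans cells, the epidermal DCs that reach skin-draining nodes, were measured in 3 of 5 cases and all 3 were higher after antibiotics (2 of 3 without untreated replicate 2), at a mean log2 level of 7.44 to 7.79 against 7.01 to 7.35. Over all genes 53.5% lay higher. Cd207 (langerin) lay at 0.74 (SE 0.27, and 0.45 with its other probe) and the TGF-beta receptor gene Tgfbr1 at 0.69 (SE 0.20), with limma adjusted p of 0.565 and 0.473. The remaining marker, Il1r2, lay at 0.12 (SE 0.22), with its highest value on untreated replicate 1 (8.02). The groups overlapped for Il1r2 and Cd207. Cd24a and Spry1 were detected on 0 arrays. The cDC1 list was also higher after antibiotics, and the part of either cell type in the Cd207 and Tgfbr1 values was not tested. Plasma cells, known to include Ccr10-carrying cells, had 4 measured markers, 3 of them higher, against the same 53.5%. The higher ones were Txndc5 (0.51), Xbp1 (0.29) and Irf4 (0.25), and Irf4 was also counted among the cDC2 markers. Mzb1 was lower (-0.16). The mean log2 level of the list was 7.70 to 7.74 after antibiotics and 7.46 to 7.55 without. Jchain, Prdm1, Sdc1 and Derl3, the rest of the list, were detected on 0 arrays. The part of plasma cells in these values was not tested.

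Untreated replicate 1 gave the lowest of the 6 values for Cxcr3 (5.64), Cx3cr1 (4.86) and Xcr1 (4.60), for Cxcl9 (8.36), Cd207 (6.44) and Lyz2 (9.64), and for the cDC1 list (7.04). It gave the highest value for Ccr7 (10.34), Cxcr4 (6.20) and Arrb2 (7.24). It did not stand apart in the number of probes detected (7428). It had the highest score on the first principal component (11.5, with untreated replicate 2 next at 7.31) and the lowest maximum intensity (14596.1). Its lowest correlation, 0.963, was with antibiotics replicate 1, and its highest, 0.984, with untreated replicate 2. The genes named here were picked after their values were seen, and the pattern was not tested.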
